A study of Mus musculus with 6 samples.

Results

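The clustered protocadherins are neural cell-surface cadherins encoded side by side in an alpha, a beta and a gamma cluster. Every row whose symbol named an alpha, beta or gamma cluster gene was taken, which gave 58 of 24421 genes. They comprised 14 alpha genes (12 alternate genes, Pcdha1 to Pcdha12, and the C-type genes Pcdhac1 and Pcdhac2), 22 beta genes, and 22 gamma genes. The gamma genes were 12 of type A, 7 of type B and 3 of type C. Reads were counted in the cerebellar Purkinje neuron layer, microdissected with the adjoining molecular layer, of mice aged 1 year. Wild-type mice (WT, n = 3 libraries) were compared with mice carrying a STIM1 knockout (KO, n = 3 libraries). STIM1 is the calcium sensor of the endoplasmic reticulum that triggers store-operated calcium entry. The labels give neither the design of the knockout allele nor the cells in which the gene was removed, and they give no strain or sex. The libraries were single-end TruSeq mRNA libraries read over 50 bases. The series text calls the samples of each genotype biological replicates.

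In the alpha and gamma clusters, each gene has its own promoter and a large variable first exon that encodes the extracellular domains, the transmembrane stretch and the start of the cytoplasmic tail. That exon is spliced to a set of constant exons common to the whole cluster, whereas beta genes lack constant exons. CTCF and cohesin join distant enhancers to chosen promoters, so that a neuron uses only some alternate genes, while C-type genes are used more evenly. The proteins bind like to like between membranes, and gamma protocadherins are known for letting the dendrites of a Purkinje cell avoid each other. Antisense RNAs that start within alpha variable exons have been described as part of promoter choice.

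The libraries held 645994 to 764839 counts in genes, which was 1.16% to 1.23% of their uniquely aligned reads, and 98.8% of uniquely aligned reads fell in no feature. At this depth 3 counts correspond to 3.81 to 4.75 reads per 1000000 reads in genes (CPM, with library sizes scaled by edgeR's TMM factors). The strand setting of the counting is not given in the sources used here. In the 4 libraries without Y-linked counts (replicates 1 and 2 of both genotypes), Tsix had 2987 to 3265 counts and Xist, on the opposite strand of the same locus, had 79 to 139. Whether the counts come from the strand of the named gene was not tested, so each value below is a number of reads counted under a gene symbol and may hold RNA of the opposite strand, in part or altogether. Both replicate 3 libraries held Y-linked counts, 28 in WT and 14 in KO. Stim1 itself was thinly covered, with 7, 21 and 3 reads across WT replicates 1 to 3, against 4, 3 and 2 across the KO replicates. Its level was 15.5 ± 14.4 CPM (SD, n = 3, as for all means below) for WT against 4.24 ± 0.978 CPM for KO, the groups overlapped, and permuting the genotypes exactly, two-sided, gave p = 0.3 (exact permutation test), 0.1 being the lowest value 3 against 3 libraries allow. These counts neither check nor contradict the genotype labels.

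The labelled tissue was checked against cell type markers. Purkinje markers (Pcp2, Calb1, Car8, Itpr1 and Pvalb) summed to 2310 to 2981 CPM in WT and 1736 to 2320 CPM in KO, and KO replicate 2 reached just above WT replicate 3, the lowest WT library. Bergmann glia and astrocyte markers summed to 622.5 to 714.8 CPM in WT and 381.4 to 576.3 CPM in KO, without overlap. Itpr1 held most of the Purkinje sum, with a mean of 1733 CPM in WT and 1250 CPM in KO. The log2 fold change was below 0 in 4 Purkinje markers and above 0 in Pcp2. It was below 0 in 4 Bergmann glia and astrocyte markers and above 0 in Gdf10. Within these lists, only Itpr1, Pvalb and S100b had groups without overlap. Granule cell markers, at 347.7 to 414.1 CPM in WT and 363.5 to 452.8 CPM in KO, overlapped, as did molecular layer interneuron markers at 172.4 to 199.3 CPM and 138.6 to 177.3 CPM. Oligodendrocyte markers stood at 62.94 to 87.32 CPM in WT and 66.5 to 85.1 CPM in KO. Microglial markers reached 41.96 CPM, endothelial markers 20.32 CPM and choroid plexus markers 8.992 CPM at most in any library, and both erythrocyte markers were at 0 in all 6. None of the tested markers passed at an adjusted p under 0.05 in edgeR's quasi-likelihood test between genotypes. Unadjusted p in that test was lowest for Pvalb (3.98e-04), Itpr1 (0.00308) and S100b (0.00402), all lower in KO, each with an adjusted p of 0.916. The microglial, endothelial, choroid plexus and erythrocyte markers, and Prkcd, Mobp and Mog, were too thinly covered to test. The dissected layer therefore held RNA of several cell types, and fewer cells of a type and less RNA per cell cannot be told apart in it.

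In the GENCODE M21 annotation of the mouse build GRCm38, all 58 genes lie on the plus strand of chromosome 18. The alpha cluster spans 36930184 to 37187661, the beta cluster 37264938 to 37524479 and the gamma cluster 37661793 to 37841873. An alpha gene shares a median of 2860 exon bases with another gene of the same strand and a gamma gene 2119, which reflects the constant exons, while the median beta gene shares 0. A read inside a constant exon matches every gene of its cluster. The counting mode is not given, but HTSeq's default sets such reads aside as ambiguous, and the whole genome gave only 2373 to 2831 ambiguous reads per library. Levels of different genes are therefore compared below as CPM per kilobase of exon that no other gene shares on the same strand. For most genes this is largely the variable exon. For some it takes in further annotated exon, which can lower the value and the rank. Pcdhga12 has 4545 such bases against a first exon of 2961, and Pcdhgc3 has 3380 against 2568.

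Similar variable exons also limit what a short read can assign. In the 12 alternate alpha genes, 10.2% to 26.6% of the 50-base windows of the first exon also occur exactly in transcripts of another gene, each gene sharing windows with all 11 others. The share was 2.67% to 17.9% in gamma B genes, 0% to 12% in beta genes and 0% to 4.25% in gamma A genes, and 0% in the alpha C and gamma C genes. Reads from shared windows align to several places, so alternate alpha genes have less unique first-exon sequence than C-type or gamma A genes. Genes on the opposite strand are a second limit. For 13 of the 58 members at least 50 exon bases overlap an exon of a minus-strand gene, and these 13 held 66.85% of all member counts. In the gamma cluster, 4 of them overlap Gm26672 (minus strand, 37746559 to 37768242), which shares 2613 exon bases with Pcdhga10, 1381 with Pcdhga11, 771 with Pcdhgb7 and 422 with Pcdhga12. BC037039 (37805718 to 37807922) shares 1559 with Pcdhgc3. Without a stated strand, reads from a protocadherin and from its opposite partner cannot be told apart, and the partners were not analysed here.

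The gamma cluster supplied most of the signal. Summed over all libraries, 79.1% of member counts came from gamma genes, 15.8% from alpha genes and 5.18% from beta genes. The members together held 488, 565 and 615 reads across WT replicates 1 to 3, against 690, 614 and 618 across the KO replicates, which was 0.0755% to 0.0937% of gene counts. Per kilobase of unshared exon, gamma C genes stood highest at 21.4 CPM, followed by gamma B at 9.0, gamma A at 7.40, alpha at 3.92 and beta at 0.493.

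Within the gamma cluster the level was low in the first 13 genes, from 0.191 (Pcdhga6) to 2.73 (Pcdhga4) CPM per kilobase. It was higher, without a steady rise, in the next 6, from 8.33 (Pcdhgb6) to 43.7 (Pcdhgb7). Pcdhgc3 stood highest at 64.5, and the level then dropped to 6.83 for Pcdhgc4 and 0.783 for Pcdhgc5, the last genes. The first 13 genes held 5.66% ± 2.10 of gamma counts among WT libraries, compared with 5.52% ± 0.545 among KO libraries. The 6 genes just before the C-type genes (Pcdhgb6, Pcdhga10, Pcdhgb7, Pcdhga11, Pcdhgb8 and Pcdhga12) held 57.0% ± 4.79 in WT and 60.6% ± 1.07 in KO. The C-type genes held 37.3% ± 6.74 in WT and 33.8% ± 1.58 in KO, and Pcdhgc3 alone held 32.9% ± 6.89 and 30.4% ± 1.74. The rank correlation of position with CPM per kilobase was rho = 0.69 over 22 gamma genes, −0.37 over 14 alpha genes and −0.094 over 22 beta genes, given as a description of genes that share libraries, depth and similar sequence. The high gamma levels coincide in part with the opposite-strand overlaps. The 8 gamma genes with an opposite partner held 81.82% of gamma counts, with a median of 18.6 CPM per kilobase, against 0.692 for the 14 without one. Pcdhgb8 has no such exon overlap and stood at 19.8 CPM per kilobase, but its first exon (37761801 to 37764299) lies within the span of Gm26672. Partnered gamma genes reached down to 0.219. In the alpha cluster the medians were 0.654 CPM per kilobase for 4 partnered genes and 2.42 for 10 others. The partnered alpha genes include Pcdha4 and Pcdha6, and the others include Pcdha7. All of these had 0 counts in every library, and limits on reading those zeros are given below. What share of these counts came from opposite-strand RNA was not tested.

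**Figure D1:**
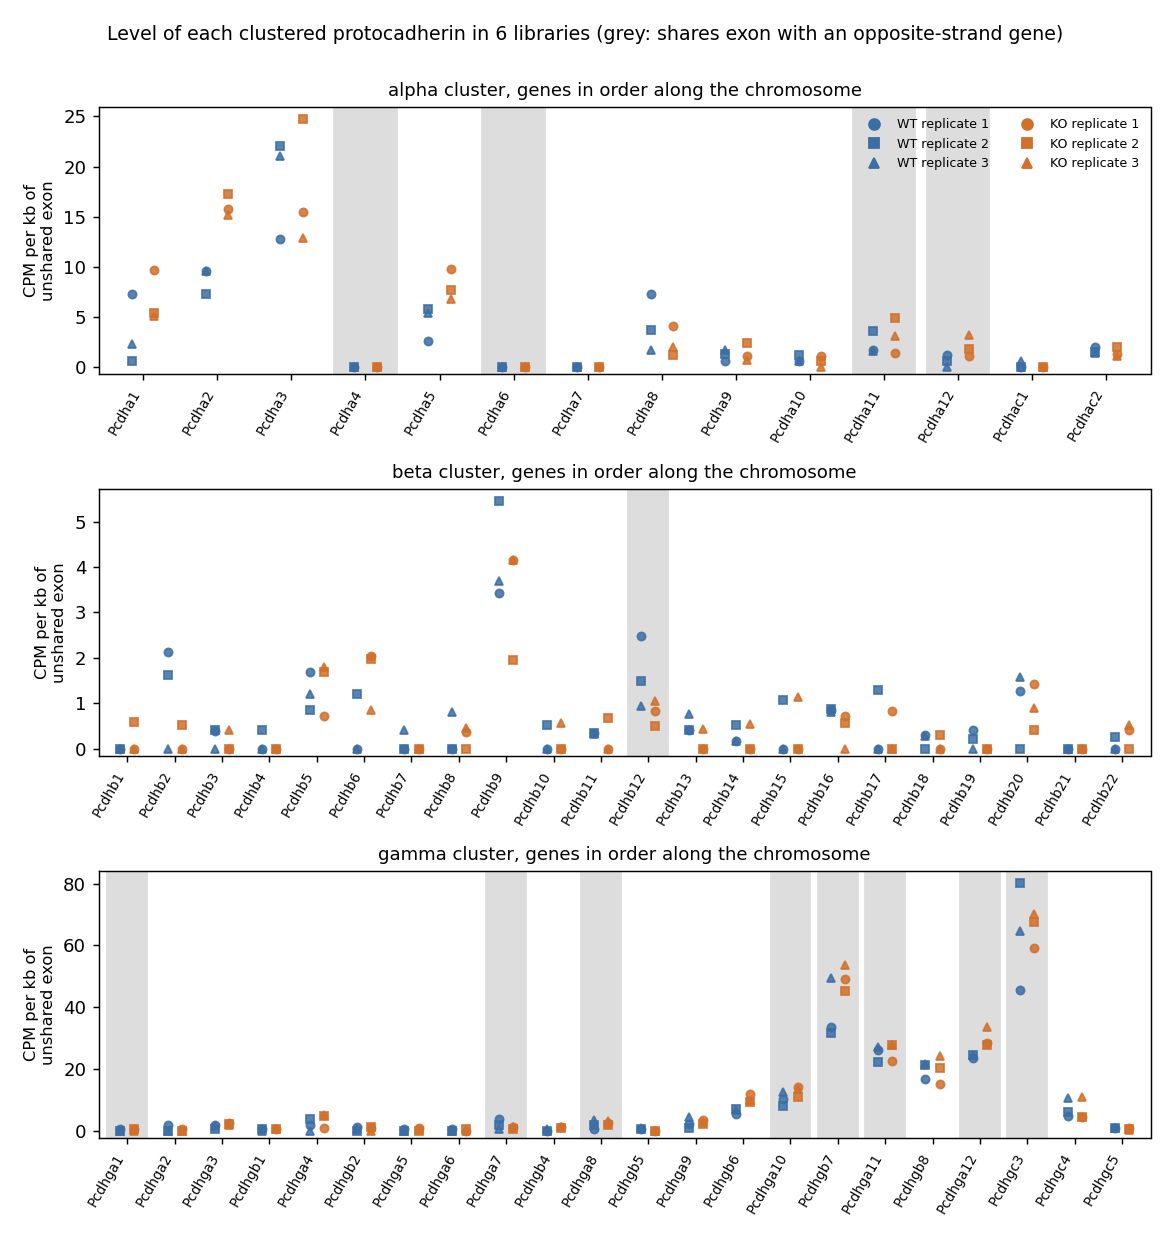
Level of each of the 58 clustered protocadherins in CPM per kilobase of unshared exon (vertical axis), with genes in order along the chromosome in one panel per cluster and a point for each of the 6 libraries. Grey bands mark genes that share exon bases with an opposite-strand gene. Pcdhgc3 and Pcdhgb7 have the highest means, 64.5 and 43.7.

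Pcdhgc3, a C-type gene used widely across cells, had the highest level of all members at 64.5 CPM per kilobase. Its counts were 103, 179 and 155 across WT replicates 1 to 3, against 157, 153 and 150 across the KO replicates. The groups overlapped, at 214 ± 58.3 CPM in WT and 222 ± 19.8 CPM in KO. It took 27.3% of gamma counts in WT replicate 1 (95% Wilson interval 23.1% to 32.0%), 40.6% (36.1% to 45.2%) in WT replicate 2 and 30.8% (26.9% to 34.9%) in WT replicate 3, and 29.2% to 32.4% in the KO libraries. WT replicate 2 thus stood above the other libraries in the share of this gene. Intervals here cover counting error only.

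**Figure D2:**
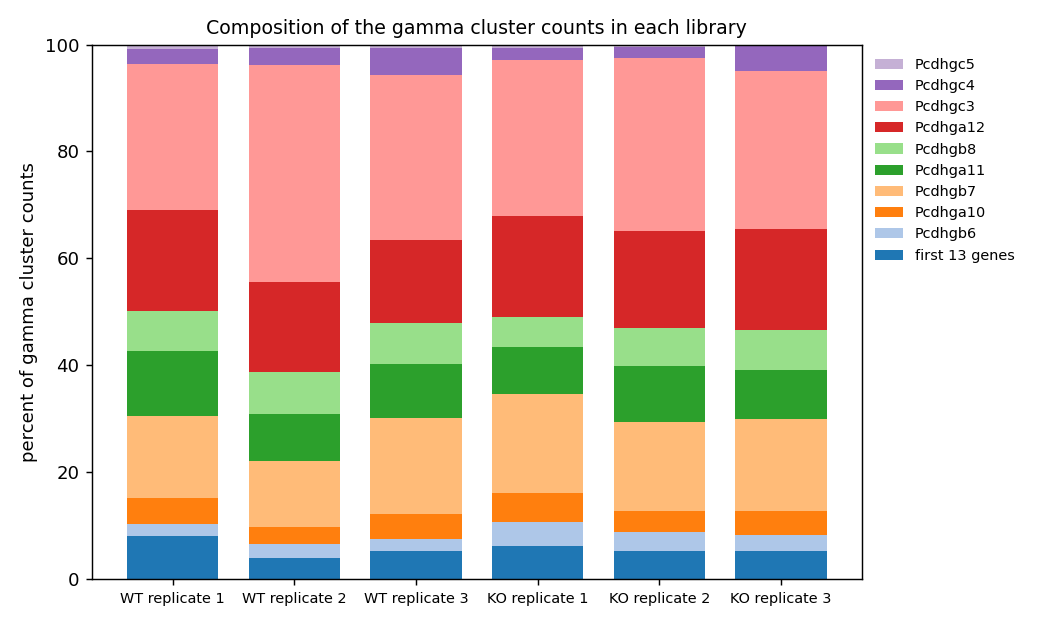
Percent of gamma cluster counts (vertical axis) in each of the 6 libraries, split into the first 13 genes as one part and each later gene as its own part. The 6 genes before the C-type genes together made up 51.7% to 61.8% in every library, and the first 13 between 3.85% and 7.96%.

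Of the other C-type genes, Pcdhgc4, whose protein is known to support neuronal survival, had 11, 14 and 26 reads in the WT libraries against 12, 10 and 24 in the KO libraries. Pcdhgc5 had 3, 3 and 3 reads in the WT libraries against 3, 2 and 1 in the KO libraries. Pcdhac2, a C-type alpha gene known from serotonergic axons, had 4, 3 and 3 reads in the WT libraries against 3, 4 and 2 in the KO libraries, at 4.92 ± 0.944 and 4.31 ± 1.46 CPM. Pcdhac1 had 1 count in WT replicate 3 and 0 in the other libraries. All but Pcdhgc4 therefore had at most 4 counts in a library, and no difference was detectable at this depth.

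Below Pcdhgc3 in level per kilobase came Pcdhgb7 at 43.7, Pcdhga12 at 27.1, Pcdhga11 at 25.6 and Pcdhgb8 at 19.8, all at the 3′ end of the variable gamma genes. Pcdhgb8 is annotated as a polymorphic pseudogene in GENCODE M21. The first alpha genes followed, with Pcdha3 at 18.1 and Pcdha2 at 12.4, and then Pcdhga10 at 11.5 and Pcdhgb6 at 8.33. The highest beta gene, Pcdhb9, stood at 3.80, with 7, 11 and 8 reads in the WT libraries against 10, 4 and 8 in the KO libraries. Pcdha4, Pcdha6, Pcdha7 and Pcdhb21 had 0 counts in all 6 libraries. Where reads can be assigned to the gene, a count of 0 allows up to 3.81 to 4.75 CPM in a library. In GENCODE M21, which need not be the annotation that was counted, the first exon of Pcdha4 is largely shared with the gene Gm42416. There 93 of 2503 bases are its own, whereas Pcdha6 and Pcdha7 keep most of theirs, 2285 of 2507 and 2139 of 2477 bases. RefSeq lists read-through genes from the starts of Pcdha4, Pcdha6 and Pcdha7 under the synonyms Pcdha4-g, Pcdha6-g and Pcdha7-g. Rows for these read-through genes, looked up after the zeros were seen, held at most 2 counts in any library. If the counted annotation let them share the first exons of Pcdha4, Pcdha6 and Pcdha7, HTSeq's default would set such reads aside. The limit for a count of 0 would then not hold for those genes. The part of the read-through genes in the zeros was not tested.

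The comparison of genotypes was made for all genes at once with edgeR's quasi-likelihood test. To be tested, a gene had to reach a CPM equal to about 10 counts in at least 3 libraries, and 5320 genes did. Of the 58 members 11 passed, holding 84.74% of member counts, and the 47 others were too thinly covered to test. A gene may pass this filter through one genotype alone: Pcdha5 reached it in 3 KO libraries and 0 WT libraries.

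No member passed at a Benjamini-Hochberg adjusted p under 0.05 in edgeR's quasi-likelihood test, where 0% of all tested genes did. The lowest adjusted p of a member in that edgeR test was 0.916. The same test gave 2 members an unadjusted p under 0.05, against 4.62% of tested genes. Both of these members were higher in KO (1.58% of tested genes) and 0 were lower (3.05%). DESeq2, run without that filter, called 0 of 54 members and gave 1, Pcdha2, an unadjusted p under 0.05, against 0.653% of its 16540 genes. In 4 of the 11 members every KO library lay above every WT library, against 4.61% of tested genes. The reverse, every KO value below every WT value, occurred in 0 members, against 6.13%. The fold change was above 0 in 8 of 11, against 50.2% of tested genes, and the median log2 fold change was 0.31, against 0.0017 for all tested genes. The size of this lean depended on the setting. Per uniquely aligned read 6 of the 11 were above 0, against 40.8% of tested genes. The members' median was then 0.25, against −0.053 for all tested genes. With RLE scaling 9 of 11 were above 0, against 51.8%. Leaving out single libraries gave from 8 of 12 (without WT replicate 1, against 49.4%) to 13 of 13 (without WT replicate 3, against 49.1%). Without the filter 26 of 54 members were above 0, against 47.7% of genes, and the median was −0.0052. The median was 0.022 over 54 members with DESeq2. The 54 members of these fits include those too thinly covered for the main test. Pcdha5 owed its test to the KO libraries alone, and it is among both the 4 non-overlapping members and the 8 above 0. It also enters the median of 0.31. These counts and that median were not taken without it. The standard error of a single member had a median of 0.28 on the log2 scale, and the error of the median over members was not measured.

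**Figure D3:**
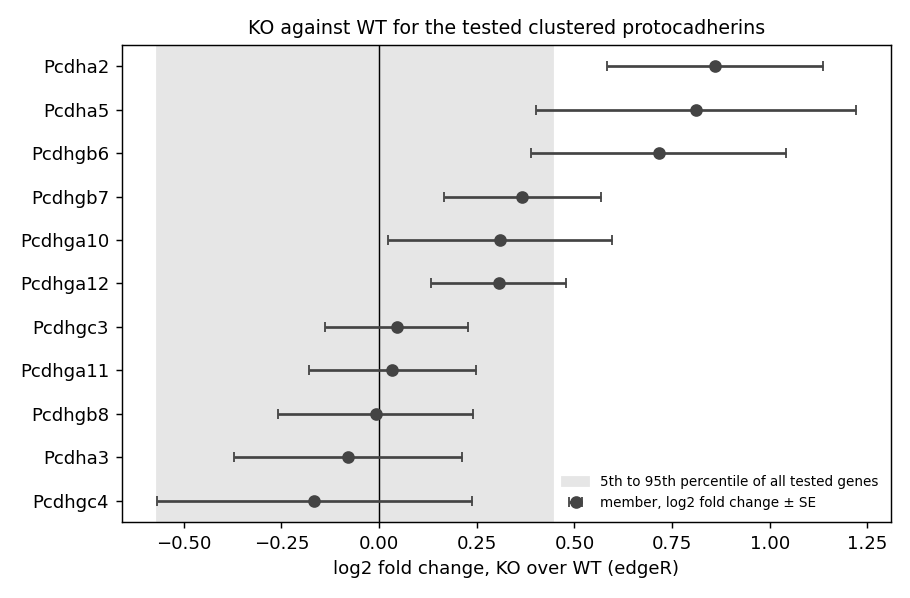
Log2 fold change of KO over WT from edgeR (horizontal axis) for the 11 tested clustered protocadherins, with bars of 1 standard error. The shaded band spans the 5th to the 95th percentile of all tested genes, −0.57 to 0.45. Values run from −0.17 for Pcdhgc4 to 0.86 for Pcdha2, and 8 of 11 lie above 0, none passing the adjusted threshold. Pcdha5, among those above 0, passed the filter through the KO libraries alone.

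Pcdha2 had the largest log2 fold change of the tested alpha genes. It had 16, 12 and 17 reads across WT replicates 1 to 3, against 31, 29 and 24 across the KO replicates, or 22.0 ± 3.36 CPM and 40.2 ± 2.70 CPM. Every KO library lay above every WT library, under TMM scaling, without it, and per uniquely aligned read. The log2 fold change was 0.86 (SE 0.28), with an unadjusted p of 0.00617 and an adjusted p of 0.916 in edgeR's quasi-likelihood test. Its share of alpha counts was 18.5% ± 3.49 in WT and 26.4% ± 2.60 in KO. Pcdha2 has no opposite-strand exon of the stated size, but like all alternate alpha genes it shares windows with its neighbours.

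Pcdha3, the neighbour with the highest level of the cluster, had 21, 36 and 37 reads in the WT libraries against 30, 41 and 20 in the KO libraries. Its groups overlapped fully, at 46.0 ± 12.6 CPM and 43.6 ± 15.5 CPM, with a log2 fold change of −0.079 (SE 0.29). That sign turned in 5 of the alternatives listed in the closing section. Pcdha5 had 4, 9 and 9 reads in the WT libraries against 18, 12 and 10 in the KO libraries, with a log2 fold change of 0.81 (SE 0.41) and an adjusted p of 0.987 in edgeR's quasi-likelihood test. The alpha genes nearest to the filter from below were Pcdha1, with 12, 1 and 4 reads in the WT libraries against 19, 9 and 8 in the KO libraries, and Pcdha11, with 5, 11 and 5 reads in the WT libraries against 5, 15 and 9 in the KO libraries. Both overlapped between genotypes, and Pcdha11 shares 2486 exon bases with the opposite-strand gene Gm10545.

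Summed over the cluster, alpha genes stood at 117, 126 and 117 CPM in WT and 152, 179 and 130 in KO, or 119.77 ± 4.98 and 153.67 ± 24.5 CPM. The log2 ratio of the means was 0.36. KO libraries lay above WT libraries under TMM scaling, but the groups overlapped without the TMM factor, where the ratio was 0.32, and per uniquely aligned read, where it was 0.31. Leaving out Pcdha3 moved the ratio to 0.58, and leaving out KO replicate 2 moved it to 0.24.

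Beta genes, which are single-exon genes without a constant part, were all below the filter. Their sum was 49.5, 62.0 and 39.4 CPM in WT and 41.9, 32.8 and 45.9 in KO, or 50.3 ± 11.3 and 40.2 ± 6.73 CPM, with a log2 ratio of −0.32. The groups overlapped, and the ratio was −0.14 without WT replicate 2 and −0.20 without KO replicate 2. Spread over 22 genes, this sum left most beta genes with a few counts per library. Pcdhb6 had 0, 3 and 0 reads in the WT libraries against 6, 5 and 2 in the KO libraries, and its groups overlapped. Pcdhb16 had 3, 3 and 3 reads in the WT libraries against 3, 2 and 0 in the KO libraries.

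**Figure D4:**
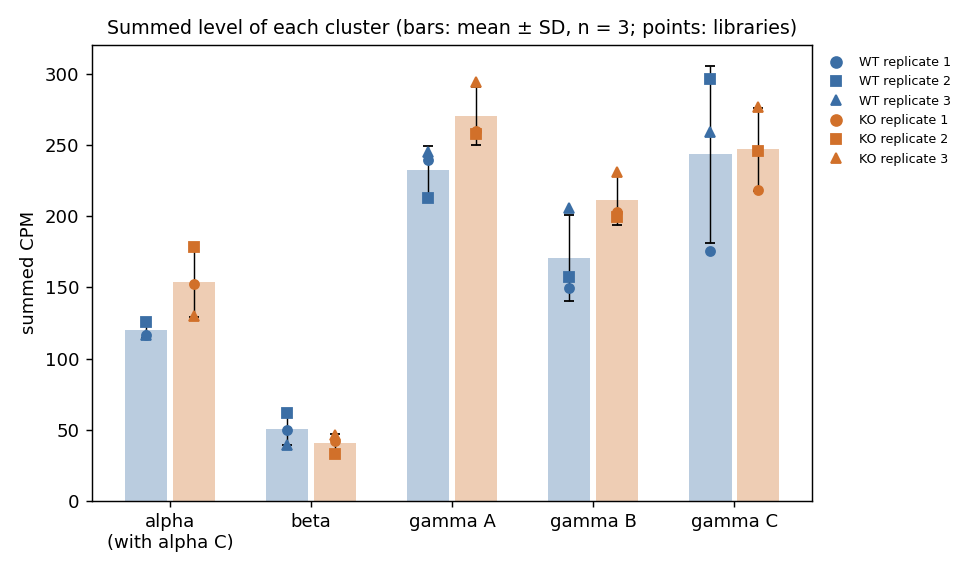
Summed CPM of each cluster (vertical axis), with bars for the mean and SD of 3 libraries per genotype and a point per library. KO lay above WT without overlap for alpha (119.77 against 153.67) and gamma A (232.69 against 270.87), though not under every scaling, and the other groups overlapped.

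Among gamma A genes Pcdhga12 had the highest level. Its counts were 71, 74 and 79 reads in the WT libraries against 102, 85 and 96 in the KO libraries, or 110 ± 3.01 and 136 ± 13.9 CPM. All KO libraries stood above all WT libraries under each of the 3 scalings, with a log2 fold change of 0.31 (SE 0.17), an unadjusted p of 0.0954 and an adjusted p of 0.987 in edgeR's quasi-likelihood test. Pcdhga11, the A-type gene before it, had 46, 39 and 51 reads in the WT libraries against 47, 49 and 46 in the KO libraries. Its log2 fold change was 0.034 (SE 0.21), and the ratio of its group means was slightly below 1 without the TMM factor. Pcdhga10 had 18, 14 and 23 reads in the WT libraries against 29, 19 and 22 in the KO libraries, with a log2 fold change of 0.31 (SE 0.29). Each of the 3 shares exon bases with Gm26672 on the opposite strand. The gamma A sum was 240, 213 and 245 CPM in WT and 260, 258 and 294 in KO, with a log2 ratio of 0.22, and the groups overlapped per uniquely aligned read, where the ratio was 0.16. Without Pcdhga12 the ratio was 0.13.

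Pcdhgb6 had the largest log2 fold change of the tested gamma B genes. It had 9, 12 and 12 reads in the WT libraries against 24, 16 and 16 in the KO libraries, or 16.2 ± 2.41 and 26.6 ± 3.49 CPM. Every KO library lay above every WT library, with a log2 fold change of 0.72 (SE 0.33), an unadjusted p of 0.0420 and an adjusted p of 0.987 in edgeR's quasi-likelihood test. Pcdhgb7, the B-type gene of highest level, had 58, 54 and 91 reads in the WT libraries against 100, 79 and 88 in the KO libraries. WT replicate 3 reached into the KO range, and the log2 fold change was 0.37 (SE 0.20). Pcdhgb8 had 28, 35 and 38 reads in the WT libraries against 30, 34 and 38 in the KO libraries, with a log2 fold change of −0.0090 (SE 0.25). The gamma B sum was 150, 157 and 206 CPM in WT and 203, 200 and 231 in KO, with a log2 ratio of 0.31 (0.46 without WT replicate 3), and the groups overlapped.

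**Figure D5:**
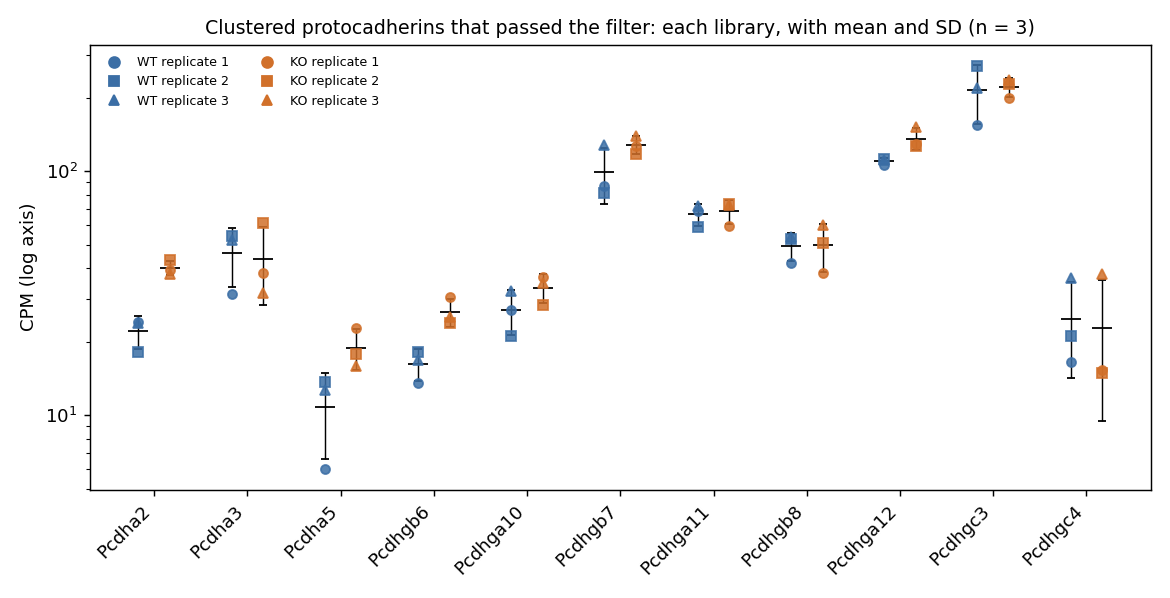
CPM of the 11 tested clustered protocadherins on a log axis, one point per library with the mean and SD of 3 libraries per genotype. The KO points of Pcdha2, Pcdha5, Pcdhgb6 and Pcdhga12 lie above all their WT points, and the other 7 genes overlap.

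The C-type gamma genes did not separate by genotype. Pcdhgc3 had a log2 fold change of 0.045 (SE 0.18) and Pcdhgc4 of −0.17 (SE 0.40), and each sign turned under some alternatives. Their sum with Pcdhgc5 was 175, 296 and 259 CPM in WT and 218, 246 and 277 in KO, a log2 ratio of 0.020 that turned to −0.018 without the TMM factor. Leaving out single libraries moved it from −0.17 (without WT replicate 1) to 0.19 (without WT replicate 2). Over all 58 members the sum was 731, 854 and 866 CPM in WT and 876, 915 and 978 in KO, with a log2 ratio of 0.18. The lowest KO and highest WT library differ by little here, and the groups stayed apart under each of the 3 scalings. The Bergmann glia and astrocyte marker sum given above was lower in every KO library than in every WT library. The Purkinje marker sum, most of it Itpr1, had the lower range in KO with a slight overlap. Not every marker fell, since Gdf10 and Pcp2 had log2 fold changes above 0. The part of cell composition in the protocadherin values was not tested.

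Some members below the filter also had groups that did not overlap, at counts of 5 or fewer. The share of all genes below the filter with such groups was not taken, so these members are only listed. Pcdhgb5 had 2, 2 and 3 counts in WT and 0 in each KO library. Pcdhgb4 had 0, 0 and 1 reads in the WT libraries against 3, 2 and 3 in the KO libraries, and Pcdhga3 had 3, 1 and 3 reads in the WT libraries against 5, 4 and 3 in the KO libraries. Pcdhb16 and Pcdhgc5, with the counts given above, lay lower in KO, in part only through the scaling of equal counts. All of these values lie near the limit that a count of 0 allows. In the authors' deposited edgeR table, which has no such filter, 5 members had an unadjusted p under 0.05 (1.9% of its genes did). That edgeR table put Pcdha2, Pcdhgb6, Pcdhb6 and Pcdhgb4 higher in KO and Pcdhgb5 lower. The authors' deposited DESeq table had 3 such members (1.26% of its genes), with Pcdha2 at a fold of 1.87, Pcdhb6 at 4.10 and Pcdhgb5 listed at a fold of 0. These tables and the fit reported here rest on the same 6 libraries.

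Genes that act with the clustered protocadherins were read from the same fit. Of 24 regulators of promoter choice (CTCF, cohesin and its loaders, DNA methylation enzymes and silencers), 10 were tested, 0 passed at an adjusted p under 0.05 and 0 had an unadjusted p under 0.05 in edgeR's quasi-likelihood test. The log2 fold change was above 0 in 6 and below 0 in 4, with a median of 0.0051. Of all tested genes 50.2% were above 0 and 4.62% had an unadjusted p under 0.05 in that test, and their median was 0.0017. Ctcf, which encodes the factor bound at protocadherin promoters, had 20, 15 and 20 reads in the WT libraries against 25, 20 and 25 in the KO libraries, with a log2 fold change of 0.31 (SE 0.28). Smc1a, a cohesin subunit, stood at −0.38 (SE 0.27). Both overlapped between genotypes.

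Of 24 partners and processing enzymes (kinases, the WAVE complex, neuroligins and proteases), 14 were tested, 0 passed, and the median log2 fold change was −0.069. It was above 0 in 6 and below 0 in 8, and 1 had an unadjusted p under 0.05 in edgeR's quasi-likelihood test. The shares of all tested genes given above apply here too. Fyn, a Src-family kinase, had 17, 10 and 21 reads in the WT libraries against 11, 10 and 6 in the KO libraries, with a log2 fold change of −0.86 (SE 0.38), an unadjusted p of 0.0378 and an adjusted p of 0.987 in edgeR's quasi-likelihood test. Nlgn1, a postsynaptic adhesion protein, stood at −0.47 (SE 0.39) with overlapping groups. Of 20 non-clustered protocadherins and atypical cadherins, 9 were tested, 0 passed, and the median was 0.25. The fold change was above 0 in 7 and below 0 in 2, against 50.2% of tested genes above 0. In edgeR's quasi-likelihood test 1 had an unadjusted p under 0.05, against 4.62%. Celsr1, an atypical cadherin of planar polarity, had 15, 11 and 11 reads in the WT libraries against 28, 19 and 19 in the KO libraries, with a log2 fold change of 0.79 (SE 0.31), an unadjusted p of 0.0203 and an adjusted p of 0.987 in edgeR's quasi-likelihood test. Pcdh10, a non-clustered protocadherin, stood at 0.31 (SE 0.22).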

How the data were processed

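Single-end mRNA libraries of 3 WT and 3 KO mice were aligned with TopHat and counted with HTSeq 0.9.1, with DESeq and edgeR also named, per the submitters' processing notes, which name the build GRCm38 (mm10). The deposited count tables give whole-number counts per gene symbol. Strand setting, counting mode and annotation: not given in the sources used. The 5 rows that name no gene were left out, and the largest of them, reads in no feature, was 98.8% of uniquely aligned reads. The authors' deposited comparison tables give normalized mean signal, a fold (ratio), a log2 fold change (WT over KO) and p-values, and were used only where named.

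Counts were fitted with edgeR 4.0.16 in R 4.3.3 (TMM, filterByExpr with a minimum count of 10, quasi-likelihood test, two-sided, Benjamini-Hochberg over all 5320 tested genes). p-values measure the spread between these 6 libraries. DESeq2 1.42.0, RLE scaling, no filter, the library size of all uniquely aligned reads, a replicate block and leaving out each library were alternatives. The permutation test used scipy 1.17.1. Coordinates and exon overlaps came from GENCODE M21, whose duplicated Pcdha11 name was resolved by the RefSeq start of Pcdha10 within 2000 bases. No pair of libraries agreed within sampling noise.

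Named genes were the 5 tested members of lowest p in each direction, the highest member of each cluster and type, the 2 highest below the filter, tested members without overlap between genotypes, Stim1, and 2 genes of lowest p in each of 3 related lists. The other members named were chosen after their values were seen. The members and lists were chosen with earlier results of these data known. One marker of the Purkinje list is not reported here, and the sum was taken over the other 5.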

Additional observations from a re-analysis of the deposited data

How the results depend on the processing

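No member passed an adjusted p under 0.05 in any setting. Without the filter 6 genes were called and 6 of 54 members had an unadjusted p under 0.05 (3.86% of 16540 genes did), the members' median log2 fold change being −0.0052 and the regulators' 0.095. With DESeq2 1 of 54 members had an unadjusted p under 0.05, the members' median was 0.022 and the regulators' 0.11. Per uniquely aligned read 1 member did. Leaving out each library gave 0 to 1 genes called (1 without WT replicate 3) and 1 to 2 members at an unadjusted p under 0.05. It gave medians of 0.00014 to 0.14 for regulators, −0.22 to 0.0086 for partners, and 0.082 to 0.37 for non-clustered protocadherins. With both replicate 3 libraries (Y-linked counts) left out, chosen after seeing the data, 1 gene was called, the non-clustered median was −0.012, Pcdh10 stood at −0.012 and Pcdha3 at 0.19.

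Pcdhgb8 stood at 0.0010 with RLE scaling, 0.014 without the filter and 0.028 with DESeq2, and Pcdhgc3 at −0.0071 per uniquely aligned read. With single libraries left out, Pcdhgb8 ran from −0.17 to 0.16 (without KO replicate 1; 0.043 and 0.047 without WT replicates 2 and 3), Pcdhgc3 from −0.15 to 0.25 (without WT replicate 1; −0.011 without KO replicate 3), and Pcdha3 from −0.40 to 0.088 (without KO replicate 3; 0.057, 0.016 and 0.016 without WT replicates 2 and 3 and KO replicate 1). Pcdhgc4 ran from −0.72 to 0.23 (without WT replicate 3), with 0.069 and 0.040 without KO replicates 1 and 2, and Nlgn1 from −0.78 to 0.0086 without WT replicate 3. The alpha sum without its highest member gave a log2 ratio of 0.58. The causes were not tested. Pcdha2 kept an unadjusted p under 0.05 in every setting run (0.00545 to 0.0345), and Pcdhgb6 only as reported, with RLE scaling, without the filter and without KO replicate 2. With a replicate block 0 genes and 0 members were called, and 2 members, Pcdha2 and Pcdhgb7, had an unadjusted p under 0.05 (5.39% of 5320 genes did). The deviations of same-numbered libraries correlated at 0.134, 0.0706 and 0.113. Differences between libraries relative to sampling noise (chi-square per degree of freedom) were smallest for same-numbered pairs. They were 3.03, 2.30 and 2.49 for replicates 1 to 3 of WT and KO, against 3.16 to 4.99 for the other pairs. The main fit has no replicate term, and whether the numbers pair the samples was not tested.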

Other observations

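Pcdhgc4 followed the replicate 3 libraries, the ones with Y-linked counts, rather than genotype. It stood at 36.6 and 38.0 CPM in WT and KO replicate 3 and at 14.9 to 21.2 CPM in the other 4 libraries, a ratio of 2.20. Pcdhgb7 and Pcdhgb8 were also highest in both, but WT replicate 3 led only narrowly. For Pcdhgb7 it stood at 128.16 CPM, against 127.01 CPM in KO replicate 1. For Pcdhgb8 it stood at 53.5 CPM, against 52.9 CPM in WT replicate 2. Of the 5320 tested genes, 6.9% stood highest in both of these libraries and 0.132% did so with at least the ratio of Pcdhgc4. This grouping was chosen after the values were seen, and whatever else sets these libraries apart was not tested.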
